A study of Homo sapiens with 18 samples.

Results

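Integrins, the laminins they bind and adhesion partners of both were examined in 3 human cholangiocarcinoma (bile duct cancer) cell lines, with and without knockdown of RNF213, a large intracellular ubiquitin ligase. The set was drawn up by gene name, with earlier results of these data known. It holds 31 of the 36601 gene identifiers in the expression files. These are 13 integrin alpha subunits, 8 integrin beta subunits, 8 laminin chains, the hyaluronan receptor CD44 and the tetraspanin CD151. All 31 were found in the files. RNA was sequenced from 18 libraries, 3 numbered replicates of each hairpin in each line, which the submitters describe as biological replicates. HuCCT1 (from bile duct) and YSCCC (from liver) grew in RPMI-1640, and KKU-100 (from the biliary tract) grew in Ham's F12, all with fetal bovine serum, so the line and the medium cannot be told apart where KKU-100 is compared with the others. In each line, cells carrying a control hairpin (shControl, genotype label WT) were compared with cells carrying hairpin #2 against RNF213 (shRNF213, genotype label RNF213 knockdown). Every group therefore carries a hairpin delivered by a third-generation lentivirus, and the knockdown rests on a single hairpin. The series title places RNF213 in the setting of local invasion, a process in which cells have to change their hold on the surrounding matrix.

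An integrin is a receptor made of 1 alpha and 1 beta subunit, and the combination decides what the cell can hold on to. ITGB1 pairs with many alpha subunits to bind collagens, fibronectin and laminins, the ITGAV pairs bind matrix proteins such as vitronectin and latent TGF-beta, and ITGA6 with ITGB4 anchors epithelial cells to laminin in hemidesmosomes. Laminins are basement membrane proteins built of an alpha, a beta and a gamma chain. LAMA3 and LAMB3 are chains of the laminin of hemidesmosomes. RNA levels show which subunits a line can make, and not which pairs stand on its surface.

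Depth was 21056732 to 25502097 counts per library. RNF213 itself was lower under its hairpin in 9 of 9 replicate pairs, by a mean log2 ratio of -1.0 ± 0.40 (SD, n = 9 pairs). In CPM (counts scaled to library size), the shControl and shRNF213 libraries of replicates 1, 2 and 3 held 394, 1277 and 433 against 277, 431 and 286 in HuCCT1, 427, 378 and 523 against 151, 233 and 214 in YSCCC, and 1248, 1012 and 1209 against 575, 649 and 559 in KKU-100. The groups overlapped in HuCCT1, where RNF213 itself did not pass (adjusted p = 0.136, edgeR quasi-likelihood test), and not in YSCCC (0.000307) or KKU-100 (0.0462). Replicate 3 of YSCCC stood apart under both hairpins: across genes its libraries correlated with replicates 1 and 2 at 0.960 to 0.965, against 0.991 to 0.994 between those 2. In KKU-100 the shControl library of replicate 1 correlated at 0.973 with replicates 2 and 3, against 0.986 between those. The shRNF213 libraries of that line correlated at 0.980 to 0.989. In HuCCT1 and YSCCC all 7 biliary epithelial markers looked up (KRT7, KRT8, KRT18, KRT19, EPCAM, SOX9 and CDH1) reached 1 CPM in group mean. In KKU-100 only 5 did: KRT19 stood at 0.181 CPM or less in every library, and EPCAM had no count in any of the 3 shControl libraries. CDH1, counted among the 5, was also low there, at 0.770, 1.26 and 4.85 CPM in shControl. It held 155 to 445 CPM in the HuCCT1 and 880 to 1466 in the YSCCC shControl libraries. The 7 summed to 1134 to 1446 CPM in KKU-100 shControl, against 7300 to 9873 in HuCCT1 and 4962 to 8516 in YSCCC. In bulk RNA of this kind, fewer cells of a type and less RNA per cell cannot be told apart.

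Among the alpha subunits of the shControl cells, ITGA3, a receptor subunit for laminins, was the highest in every line, followed by the collagen receptor subunit ITGA2. Levels between genes are given in TPM (transcript abundance scaled to library size), which the authors scaled for transcript length. ITGA3 stood at 521 ± 38.4 TPM in HuCCT1, 412 ± 25.9 in YSCCC and 659 ± 299 in KKU-100 (mean ± SD, n = 3 in this and all following levels), and made up 53.8%, 41.5% and 63.0% of the summed alpha-subunit TPM. ITGA2 stood at 187 ± 37.7, 178 ± 51.5 and 151 ± 57.4 TPM in the same order of lines. In KKU-100 the ITGA3 values spread widely, from 368 TPM in replicate 1 to 643 in replicate 2 and 966 in replicate 3.

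Below these, the lines differed. In HuCCT1 the order went on with the laminin receptor subunit ITGA6 (127 ± 18.7 TPM), then ITGAV (60.7 ± 8.14), ITGAE (39.4 ± 9.05), the fibronectin receptor subunit ITGA5 (22.6 ± 4.05) and the collagen receptor subunit ITGA1 (8.03 ± 2.01), with no overlap between neighbours in that order. In YSCCC, ITGA5 (165 ± 23.8 TPM) overlapped ITGA2 at the top, above ITGA6 (107 ± 35.0), ITGAV (57.0 ± 2.38), ITGA1 (42.4 ± 16.0) and ITGAE (29.2 ± 7.17), whose neighbours overlapped from ITGAV downwards. In KKU-100 neighbouring subunits overlapped among the next 5: ITGAE (50.6 ± 9.70), ITGA6 (47.8 ± 13.7), ITGA1 (37.3 ± 19.8), ITGA5 (35.4 ± 4.04) and ITGAV (30.5 ± 6.03). Among those that were not neighbours, all libraries of ITGAE and ITGA6 lay above all of ITGA5 and ITGAV. The gap between ITGA6 and ITGA5 was small, with the lowest ITGA6 library at 38.78 and the highest ITGA5 library at 38.75 TPM. ITGA5 set YSCCC apart from both other lines, with log2 differences of 2.65 (SE 0.21) from HuCCT1 and -2.03 (SE 0.21) for KKU-100 against YSCCC (adjusted p = 5.54e-06 and 1.95e-05, edgeR quasi-likelihood test on counts, Benjamini-Hochberg adjustment over all genes). Its place in the line order rests on 192, 148 and 154 TPM in YSCCC against 19.3, 27.1 and 21.4 in HuCCT1.

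The other alpha subunits were low. ITGAM, a leukocyte subunit, and ITGA7, a laminin receptor subunit best known from muscle, had means of 0.545 to 1.16 TPM and 0.60 to 1.53 TPM over the 3 lines. ITGA9 and ITGA11 stayed at means of 0.0564 and 0.0885 TPM or less, and ITGA9 was too low to test in any comparison. ITGA4 and ITGA10, both near 0 in some lines, are taken up with the large differences between lines. Some of these levels carry a limit from the annotation. PELO lies inside ITGA1 on the same strand, and its counts came to 69.5% of those of ITGA1. The labels do not state whether the counting used strand, and reads of genes on opposite strands may not be told apart for ITGA7 (BLOC1S1 and METTL7B), ITGB7 (ZNF740), ITGAE (HASPIN), LAMB1 (DLD) and CD151 (POLR2L). The TPM of ITGAE was also 5.24 times what its counts per kilobase would give relative to the median gene, so its rank is uncertain. For the other members this ratio ran from 0.59 (ITGA11) to 2.31 (CD151). Orders and shares in TPM between genes carry this limit too.

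Among the beta subunits ITGB1, the shared partner of most alpha subunits, was the highest in every line, at 662 ± 105 TPM in HuCCT1, 1140.5 ± 103 in YSCCC and 1556 ± 145 in KKU-100. It supplied 58.6%, 81.4% and 87.8% of the summed beta-subunit TPM. HuCCT1 had the most ITGB4, the hemidesmosome subunit, at 281 ± 14.0 TPM (25.2% of the sum), against 38.4 ± 18.7 in YSCCC and 93.7 ± 42.7 in KKU-100. The 3 HuCCT1 libraries held 297, 274 and 272 TPM of ITGB4, YSCCC 56.6, 39.4 and 19.3, and KKU-100 50.9, 136 and 93.8. All HuCCT1 values lay above all others, while YSCCC and KKU-100 overlapped. In raw counts, ITGB4 lay above ITGB1 in the HuCCT1 shControl library of replicate 1 (18883 against 16379). It lay below ITGB1 in replicates 2 and 3 (16096 against 21660 and 17269 against 23849). The lead of ITGB1 over ITGB4 in HuCCT1, and the shares of both there, are therefore uncertain in size. By the edgeR test ITGB4 differed by -3.07 (SE 0.45, log2) for YSCCC against HuCCT1 and by -1.63 (SE 0.42) for KKU-100 against HuCCT1 (adjusted p = 0.000226 and 0.00742). ITGB5, a partner of ITGAV, was similar in size across the lines, at 100.3 ± 12.1, 125 ± 31.5 and 80.7 ± 30.6 TPM, and none of its 3 differences passed (adjusted p = 0.194 to 0.769, edgeR). ITGB7, a leukocyte subunit, had means of 0.548 to 1.66 TPM.

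Among the laminin chains, HuCCT1 had the hemidesmosome chains high, with LAMB3 at 476 ± 96.1 TPM and LAMA3 at 254 ± 87.7. YSCCC had them at 207 ± 14.8 and 27.7 ± 9.37 TPM. KKU-100 had LAMB3 at 92.5 ± 56.8 TPM but LAMA3 at only 2.86 ± 1.09. Both chains were thus highest in HuCCT1 and lowest in KKU-100.

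KKU-100 instead had the highest means of LAMA5, LAMB2 and LAMA4, alpha and beta chains of the laminins of mature epithelial, muscle and vessel basement membranes. LAMA5 stood at 232 ± 24.9 TPM there, against 121 ± 9.98 in HuCCT1 and 147 ± 23.2 in YSCCC. Its difference from YSCCC passed, but was lost without replicate 2 and without replicate 3 (highest adjusted p over the alternatives 0.115, edgeR). LAMB2 stood at 162 ± 8.78 TPM in KKU-100, against 56.0 ± 17.3 in HuCCT1 and 61.1 ± 5.98 in YSCCC. LAMB2 was higher in KKU-100 by 1.92 (SE 0.19, log2) against HuCCT1 and 1.62 (SE 0.19) against YSCCC (adjusted p = 1.92e-05 and 5.26e-05, edgeR). YSCCC had the highest LAMC1, the common gamma chain, at 244 ± 10.1 TPM against 102 ± 15.8 in HuCCT1 and 93.2 ± 20.7 in KKU-100. LAMB1, the beta chain of many laminins, went from 148 ± 10.1 TPM in HuCCT1 to 123 ± 50.3 in YSCCC and 76.4 ± 7.87 in KKU-100. LAMA1, the alpha chain of embryonic laminin, stayed at means under 1 TPM: 0.135, 0.741 and 0.0755. As shares of the summed laminin alpha-chain TPM, LAMA3 led in HuCCT1 (62.4%), and LAMA5 led in YSCCC (83.2%) and KKU-100 (80.4%).

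CD44, the main receptor for hyaluronan, had the highest mean TPM of the members in HuCCT1, at 961 ± 115. It stood at 255 ± 97.9 TPM in YSCCC and 189 ± 82.1 in KKU-100. Relative to the median gene, its TPM was 1.81 times what its counts per kilobase would give, and that of LAMB3 0.68 times. The rank of CD44 among the members of HuCCT1 is therefore uncertain. Its HuCCT1 libraries (1072, 842 and 969 TPM) all lay above the YSCCC (317, 306 and 142) and KKU-100 (103, 198 and 267) libraries. The differences were -2.04 (SE 0.43, log2) for YSCCC and -2.26 (SE 0.44) for KKU-100 against HuCCT1 (adjusted p = 0.00236 and 0.00132, edgeR). CD151, a tetraspanin that binds laminin-binding integrins, was high in all lines at 344 ± 26.4, 439 ± 84.0 and 429 ± 67.3 TPM, and none of its differences passed (adjusted p = 0.209 to 0.529, edgeR).

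**Figure D1:**
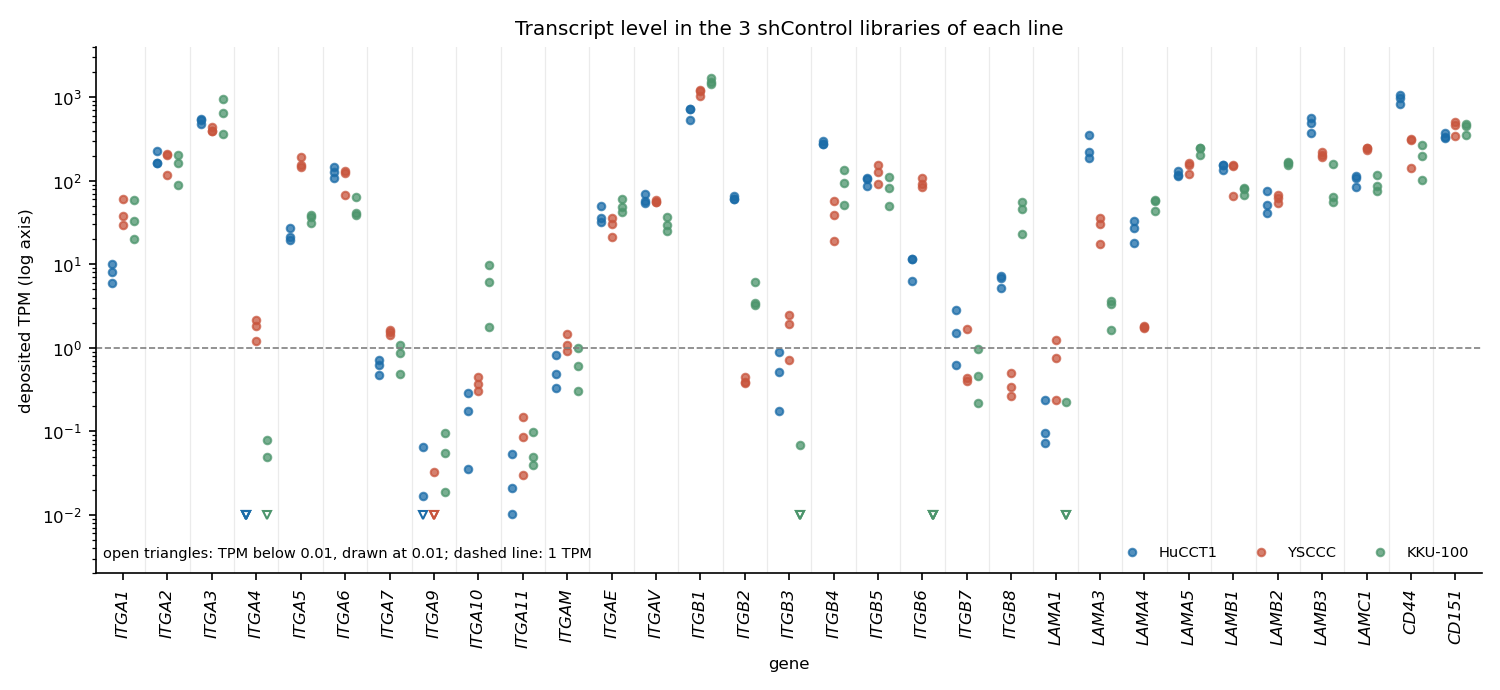
TPM of the 31 members in each of the 9 shControl libraries, on a log axis, with 1 point per library coloured by line. Open triangles mark values under 0.01 TPM, drawn at 0.01, and the dashed line marks 1 TPM. ITGB1 and ITGA3 are high in every line, while ITGB6 has no point above 0 in KKU-100 and lies between 83.7 and 109 TPM in YSCCC.

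Large differences, of at least 10-fold between the highest and lowest line mean, were found for 8 members: 6 integrin subunits (ITGA4, ITGA10, ITGB2, ITGB3, ITGB6 and ITGB8) and the laminin chains LAMA3 and LAMA4. ITGB6, an epithelial partner of ITGAV that binds latent TGF-beta, was listed at 92.2, 83.7 and 109 TPM in the YSCCC libraries, 6.35, 11.7 and 11.6 in HuCCT1, and 0, 0 and 0 in KKU-100. ITGB8, the other epithelial ITGAV partner for latent TGF-beta, showed another order, with 22.8, 45.8 and 56.1 TPM in KKU-100, 5.25, 6.96 and 7.31 in HuCCT1, and 0.344, 0.505 and 0.264 in YSCCC. The line with the most ITGB6 thus had the least ITGB8 and the reverse. As ratios of means, ITGB8 spanned 112-fold. ITGB6 in YSCCC was 8847-fold above KKU-100, from 10035 counts against 1, so that counting error alone leaves this ratio anywhere between 1588 and 3.495e+05 (95% exact interval).

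ITGB2, the leukocyte beta subunit, was present in HuCCT1 at 60.6, 66.3 and 60.1 TPM, against 3.41, 3.24 and 6.19 in KKU-100 and 0.393, 0.377 and 0.452 in YSCCC, a 153-fold span. Its alpha partner ITGAM stayed near or below 1 TPM in HuCCT1. ITGB3, the vitronectin receptor subunit, was at 2.48, 0.724 and 1.91 TPM in YSCCC, 0.511, 0.178 and 0.899 in HuCCT1, and 0, 0 and 0.069 in KKU-100. Its top ratio of 95.7 rests on 217 counts in YSCCC against 2 in KKU-100, with a 95% exact interval of 26.2 to 795 for counting error. ITGA4, best known from leukocytes, had 1.85, 2.14 and 1.22 TPM in YSCCC, no count in the 3 HuCCT1 shControl libraries, and 0, 0.050 and 0.078 TPM in KKU-100. It was at least 73.3-fold higher in YSCCC than in HuCCT1, taking 3 counts over the group as the most that 0 allows. ITGA10, a collagen receptor subunit of cartilage, was at 1.76, 6.20 and 9.79 TPM in KKU-100 and at most 0.445 TPM in the other shControl libraries, a 35.5-fold span.

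LAMA3 went from 186, 353 and 223 TPM in HuCCT1 through 35.8, 30.0 and 17.4 in YSCCC to 3.65, 1.62 and 3.32 in KKU-100, an 88.7-fold span with no overlap between lines. LAMA4, an alpha chain of vessel and mesenchymal basement membranes, had another order, with KKU-100 highest and YSCCC lowest. It held 57.7, 44.0 and 58.4 TPM in KKU-100, 17.8, 27.1 and 32.9 in HuCCT1, and 1.75, 1.80 and 1.81 in YSCCC. This was a 29.9-fold span, again without overlap. Between its highest and lowest line each of the 8 members passed the edgeR test (adjusted p = 3.96e-08 for ITGB6 to 0.000213 for ITGA10), and these calls held in each of the 7 alternative settings.

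Over all members, 14 of 30 tested differed between YSCCC and HuCCT1 (7 higher and 7 lower in YSCCC) where 58.4% of all genes tested differed (30.2% higher and 28.1% lower). Between KKU-100 and HuCCT1 18 of 30 differed (8 higher and 10 lower in KKU-100, against 57.4% of all genes, 27.3% higher and 30.1% lower), and between KKU-100 and YSCCC 19 of 30 (10 higher and 9 lower in KKU-100, against 60.7% of all genes, 27.9% higher and 32.9% lower). The shares of members were thus near those of all genes, since the lines differed at most genes. These 3 comparisons share libraries: each line's shControl cells enter 2 of them and also the knockdown comparison of that line. ITGB1 was the member most often lost on leaving out a replicate: its difference between YSCCC and HuCCT1 passed in the full test (adjusted p = 0.0208) but without replicate 1, 2 or 3 in turn it did not, with the highest adjusted p at 0.161 without replicate 1.

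To read the levels as possible receptors, 19 known alpha-beta pairs were checked, and a pair was counted where both subunits reached 1 TPM in all 3 shControl libraries. HuCCT1 had 10 such pairs, YSCCC 11 and KKU-100 10. Shared by all lines were 8 pairs: ITGB1 with ITGA1, ITGA2, ITGA3, ITGA5, ITGA6 or ITGAV, ITGAV with ITGB5, and ITGA6 with ITGB4. These cover collagen, fibronectin, laminin and vitronectin binding. The lines parted at the ITGAV pairs for latent TGF-beta. ITGAV with ITGB6 was counted in HuCCT1 and YSCCC, and ITGAV with ITGB8 in HuCCT1 and KKU-100, so HuCCT1 alone met the level for both. The subunit scarcer in RNA stood at 9.89 ± 3.07 TPM (ITGB6) in HuCCT1 and 57.0 ± 2.38 (ITGAV) in YSCCC for the former. For the latter it stood at 6.50 ± 1.10 TPM (ITGB8) in HuCCT1 and 29.7 ± 7.15 in KKU-100, where ITGAV and ITGB8 were close.

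ITGA10 with ITGB1, for collagen, was counted in KKU-100 only, and ITGA4 or ITGA7 with ITGB1 in YSCCC only, where ITGA4 (1.73 ± 0.470 TPM) and ITGA7 (1.53 ± 0.107) lay close to the limit of 1 TPM. For the hemidesmosome pair the scarcer subunit was ITGA6 in HuCCT1 (127 ± 18.7 TPM) and KKU-100 (47.8 ± 13.7), and ITGB4 in YSCCC (38.4 ± 18.7). No line met the level for ITGAV with ITGB3, ITGAE or ITGA4 with ITGB7, ITGAM with ITGB2, or ITGB1 with ITGA9 or ITGA11. In the shRNF213 cells the counts were 10, 10 and 10, the 1 change being ITGA4 with ITGB1, which no longer reached 1 TPM in every YSCCC library.

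**Figure D2:**
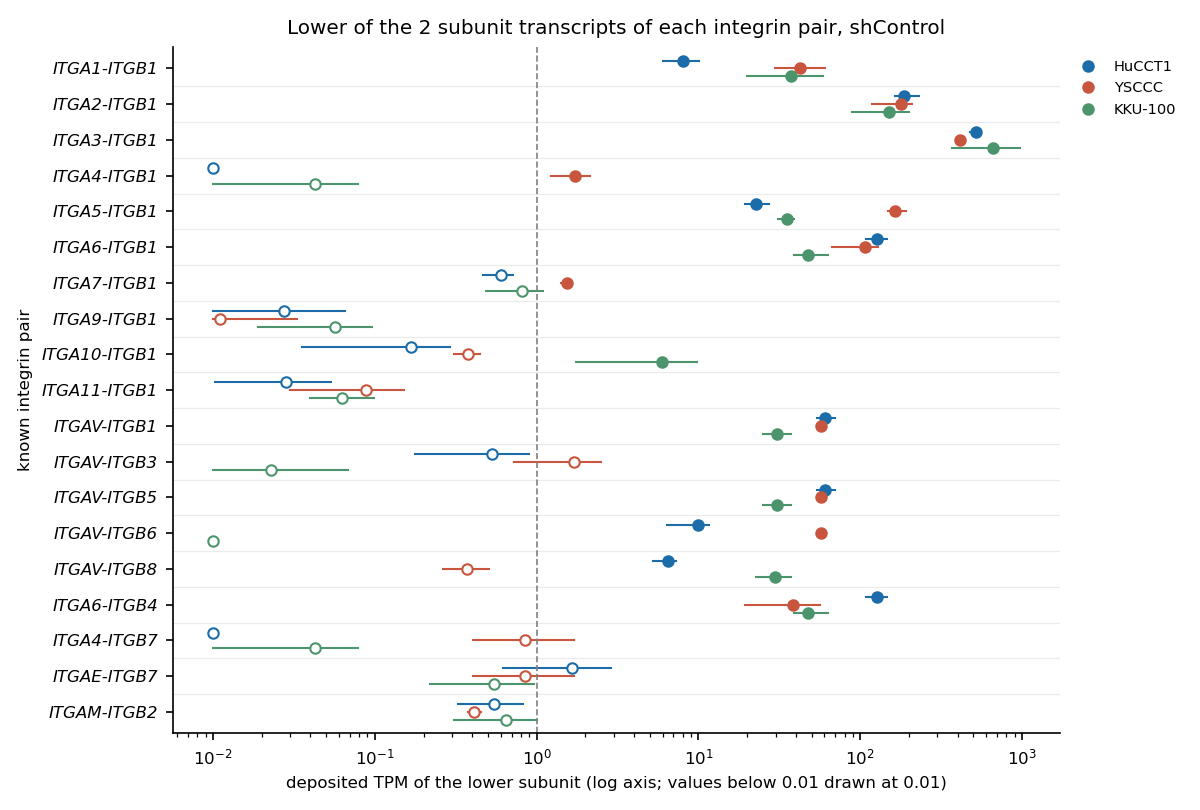
Level of the scarcer subunit for each of the 19 integrin pairs in the shControl cells of each line, in TPM on a log axis. Points are means of 3 libraries, lines run from the lowest to the highest library, and filled points mark pairs whose subunits both reached 1 TPM in all 3. The 8 pairs shared by the lines are filled throughout, while ITGAV with ITGB6 is filled in HuCCT1 and YSCCC and ITGAV with ITGB8 in HuCCT1 and KKU-100.

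In YSCCC, knockdown of RNF213 came with lower RNA of several receptor subunits and of CD44. Of 28 members tested, 10 fell and 2 rose (42.9% called, against 8.25% of all genes tested; 35.7% fell, against 4.56%, and 7.14% rose, against 3.69%). The median log2 fold change of the 28 members was -0.11, against 0.01 over all genes. Since the members were chosen with earlier results of these data known, these shares are no independent evidence about the set. The same holds for the shares given below for KKU-100 and for the differences of effect between lines. The members that fell were the collagen receptor subunits ITGA1 and ITGA2, the fibronectin receptor subunit ITGA5, the laminin receptor subunit ITGA6, ITGAM, the beta subunits ITGB1 and ITGB3, the laminin chains LAMA3 and LAMB2, and CD44. The laminin chains LAMA1 and LAMA4 rose. Libraries with equal replicate numbers were compared as pairs, and the values below are CPM of replicates 1, 2 and 3.

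ITGA2 (ENSG00000164171, GRCh38 chromosome 5, 52989340 to 53094779, plus strand) held 668, 384 and 637 CPM in the shControl libraries and 379, 197 and 210.0 in the shRNF213 libraries. The lowest control lay just above the highest knockdown library, and every pair was lower. It fell by 1.13 on the log2 scale (SE 0.13, adjusted p = 0.000357, edgeR quasi-likelihood test with the replicate as a block, n = 3 pairs, as for all values of this kind below). ITGA5 (ENSG00000161638, chromosome 12, 54395261 to 54419266, minus strand) went from 321, 244 and 232 to 202, 127 and 178 CPM, again without overlap, a log2 change of -0.67 (SE 0.10, adjusted p = 0.00228). ITGB1 (ENSG00000150093, chromosome 10, 32900318 to 33005792, minus strand), the partner of both, went from 1517, 1248 and 1332 to 1173, 984 and 1085 CPM. The groups did not overlap, and the decrease was smaller, 0.34 on the log2 scale (SE 0.08, adjusted p = 0.0201).

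For ITGA6 (ENSG00000091409, chromosome 2, 172427354 to 172506459, plus strand) the pairs ran 273 to 196, 265 to 151 and 128 to 95.7 CPM. Replicate 3 was the lowest of both groups, so the groups overlapped although every pair was lower, by -0.57 (SE 0.10, adjusted p = 0.00375, edgeR). ITGA1 showed the same layout, with 182 to 135, 138 to 127 and 90.5 to 64.1 CPM, and a log2 change of -0.35 (SE 0.10, adjusted p = 0.0477, edgeR). ITGB3 and ITGAM were low throughout. ITGB3 went from 4.22, 1.26 and 2.91 to 0.854, 0.227 and 1.29 CPM (-1.85, SE 0.30, adjusted p = 0.00278, edgeR), and ITGAM from 1.85, 2.55 and 1.40 to 0.582, 1.10 and 0.287 CPM (-1.62, SE 0.30, adjusted p = 0.0056, edgeR). The ITGAM groups did not overlap, and the ITGB3 groups did, since its replicate 2 was low under both hairpins.

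CD44 (ENSG00000026508, chromosome 11, 35138870 to 35232402, plus strand) had pairs of 460.3 to 335, 468 to 243 and 148 to 93.9 CPM. Replicate 3 again lay far below the others in both groups, and CD44 fell by 0.69 on the log2 scale (SE 0.10, adjusted p = 0.00147, edgeR). The hemidesmosome laminin chain LAMA3 (ENSG00000053747, chromosome 18, 23689443 to 23956222, plus strand) had pairs of 124 to 75.1, 113 to 70.6 and 59.8 to 43.0 CPM, a log2 change of -0.63 (SE 0.10, adjusted p = 0.00198, edgeR). Its beta chain partner LAMB3 stood at -0.36 with an adjusted p of 0.0709. LAMB2 went from 139.7, 148 and 107 to 104, 110.0 and 90.5 CPM (-0.37, SE 0.09, adjusted p = 0.0267, edgeR), with overlapping groups.

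LAMA4 (ENSG00000112769, chromosome 6, 112107931 to 112254939, minus strand) rose from 3.28, 4.80 and 3.96 to 9.67, 10.6 and 7.75 CPM in YSCCC, the line in which its control level was lowest. All knockdown libraries lay above all controls, with a log2 change of 1.22 (SE 0.17, adjusted p = 0.00131, edgeR). LAMA4 is also made by endothelial and mesenchymal cells. Of 4 endothelial markers 2 reached 1 CPM in these libraries, where the 4 summed to 14.9 to 76.6 CPM in shControl and 28.6 to 96.8 in shRNF213, most of it CDH5, and KDR had no count in shControl. Of 6 fibroblast markers 4 reached 1 CPM, where the 6 summed to 64.1 to 190.8 CPM in shControl and 40.3 to 250.8 in shRNF213. Most of this sum was LUM, at 117, 164 and 42.7 CPM in shControl and 205, 234 and 29.6 in shRNF213. COL1A1 and COL3A1 were lower in every pair, and DCN rose slightly in replicate 1 and fell in the others. The part of such cells in the result was not tested. LAMA1 rose from 2.30, 0.990 and 3.63 to 4.78, 1.89 and 5.71 CPM (0.86, SE 0.21, adjusted p = 0.0236, edgeR). The LAMA1 groups overlapped, since replicate 2 was low under both hairpins.

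The remaining 16 tested members did not pass in YSCCC. Among the other laminin-binding partners, ITGA3 (-0.05, adjusted p = 0.808), ITGB4 (0.17, adjusted p = 0.555) and CD151 (-0.23, adjusted p = 0.146) had small edgeR estimates. ITGAV stood at -0.25 (adjusted p = 0.101), and its partners at -0.07 for ITGB5, 0.10 for ITGB6 and 0.48 for ITGB8 (SE 0.30, adjusted p = 0.376). Laminin chains outside the calls stood at 0.23 for LAMA5 (adjusted p = 0.239), -0.16 for LAMC1 (adjusted p = 0.325) and -0.02 for LAMB1. The low subunits ITGA4, ITGA7, ITGA10 and ITGB7 and the subunit ITGAE lay between -0.07 and 0.28. ITGA9, ITGA11 and ITGB2 were too low to test.

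The YSCCC calls depended on the pairing and, in part, on single replicates. Without the replicate block none of the 12 passed (adjusted p = 0.883 to 0.999, edgeR), while over the other 6 settings their adjusted p ran from 8.25e-33 to 0.299. Leaving out replicate 1 kept 5 of the 12 (ITGA2, ITGA5, ITGA6, LAMA4 and CD44) and lost ITGA1, ITGAM, ITGB1, ITGB3, LAMA1, LAMA3 and LAMB2 (adjusted p = 0.0517 to 0.299). Leaving out replicate 2 lost ITGB1, LAMA1 and LAMB2 (adjusted p = 0.0825 to 0.123). Leaving out replicate 3, the one that stood apart, lost ITGA1 (adjusted p = 0.124) and added LAMB3.

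**Figure D3:**
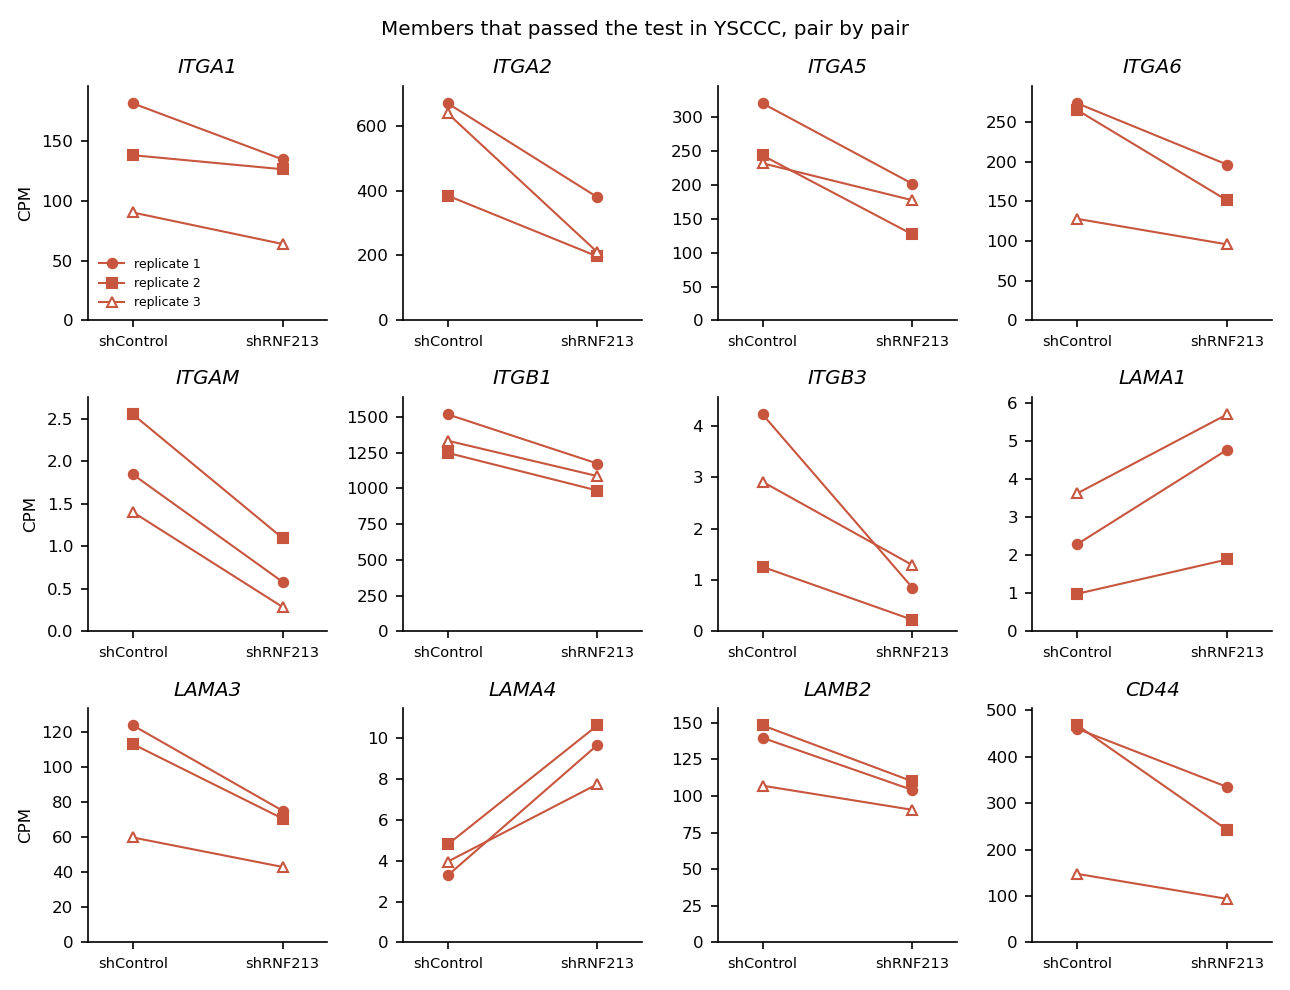
CPM of the 12 members called in YSCCC, 1 panel per gene, with each line joining the shControl and shRNF213 libraries of a replicate. Replicate 3 is drawn with open triangles, and each panel has its own axis starting at 0. All 3 lines slope down for the 10 members that fell and up for LAMA1 and LAMA4, while replicate 3 lies below the others for CD44, ITGA6, ITGA1 and LAMA3.

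The bases just before 2 of these starts are shown because ITGA2 had the largest decrease among the abundant members and LAMA3 has a start inside its gene that makes its epithelial form. Both come from RefSeq (GRCh38.p14), 250 bases 5′ to 3′ on the gene's strand, chr5:52989102-52989351 for ITGA2 and chr18:23872770-23873019 for LAMA3, both plus strand. Capitals mark matches on either strand to TGANTCA, the AP-1 motif, or GGGCGG, the GC box.
ITGA2: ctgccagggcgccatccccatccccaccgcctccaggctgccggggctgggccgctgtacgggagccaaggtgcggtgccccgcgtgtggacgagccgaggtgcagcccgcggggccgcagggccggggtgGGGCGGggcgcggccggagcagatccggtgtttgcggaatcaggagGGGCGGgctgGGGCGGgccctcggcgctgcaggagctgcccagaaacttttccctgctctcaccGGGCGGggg
LAMA3: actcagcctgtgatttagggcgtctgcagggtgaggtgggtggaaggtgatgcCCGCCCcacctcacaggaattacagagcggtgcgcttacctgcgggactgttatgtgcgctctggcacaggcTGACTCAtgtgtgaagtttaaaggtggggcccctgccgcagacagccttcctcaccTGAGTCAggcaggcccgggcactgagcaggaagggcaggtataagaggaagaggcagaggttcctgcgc
The ITGA2 stretch holds 4 GC boxes and no AP-1 match, and the LAMA3 stretch 2 AP-1 matches and 1 GC box. Of the 31 members 23 matched the promoter table, with 30 starts. AP-1 matches were found in 6.67% of these 30, against 6.57% of all 35116 starts in the table, and GC boxes in 56.7% against 42.6%. At the 11 starts of 9 members that fell in YSCCC, the shares were 9.09% and 72.7%. The third motif searched, GGAATG for TEAD factors, was found in 10% of the 30 member starts, 18.2% of those 11 and 11.9% of all, and none of the 3 motifs contains another. These are matches of letters, and no measure of factor binding was made.

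In KKU-100 the picture was different: ITGB4 (ENSG00000132470, chromosome 17, 75721328 to 75757818, plus strand), the hemidesmosome beta subunit, was the 1 member of 25 tested that passed (0.443% of all genes did), and it rose. Its shControl libraries held 131, 352 and 239 CPM and its shRNF213 libraries 406, 590.1 and 569. Every knockdown library lay above every control, with a log2 change of 1.19 (SE 0.16, adjusted p = 0.0332, edgeR). Over the 7 alternatives its adjusted p ran from 6.86e-10 to 0.666, and the call was lost without the replicate block (0.666) and without replicate 3 (0.188). In YSCCC, ITGB4 went from 136, 93.0 and 40.5 to 105, 108 and 65.9 CPM, and in HuCCT1 from 769.9, 763 and 708 to 769.8, 767 and 731, with overlapping groups in both.

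Beyond that call, KKU-100 members leaned upward. The median log2 fold change of the 25 members was 0.25, against 0.00 over all genes, and 13 of 25 were higher in all 3 pairs (52%, against 20.9% of all genes). LAMA4 alone was lower in all 3 pairs (4%, against 18.5%). At an unadjusted p under 0.05, 11 members were higher (ITGB4, LAMB1, ITGA5, ITGA1, ITGAV, ITGA6, ITGB5, LAMA3, CD151, LAMA5 and ITGA10) and LAMA4 was lower, where 8.53% of all genes were higher and 7.5% lower at that level. DESeq2 in place of edgeR called 5, adding ITGA1, ITGAV and LAMB1 (higher) and LAMA4 (lower) to ITGB4, and it called 3.04% of all genes. ITGAV held 78.5, 90.1 and 113 CPM in shControl and 147, 158 and 120.4 in shRNF213, without overlap (0.59, SE 0.17, adjusted p = 0.174, edgeR). LAMB1 held 161, 185 and 185 against 277, 216 and 322 CPM (0.58, SE 0.14, adjusted p = 0.12, edgeR), also without overlap. LAMA4 held 169.9, 123 and 169.9 against 106, 105 and 108 CPM (-0.54, SE 0.14, adjusted p = 0.139, edgeR). Leaving out replicate 2 brought ITGA6, LAMA4 and LAMB1 past the threshold beside ITGB4. ITGA4, ITGA9, ITGA11, ITGB3, ITGB6 and LAMA1 were too low to test in this line.

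In HuCCT1 no member passed by edgeR, out of 27 tested, where 0.14% of all genes did. At an unadjusted p under 0.05 there were 2, both lower, ITGA2 and ITGAV, where 5.86% of all genes were lower at that level. DESeq2 called 1, ITGA2, and 0.892% of all genes. ITGA2 held 856, 648 and 604 CPM in shControl and 561, 411 and 525 in shRNF213. The groups did not overlap, and the log2 estimate was -0.50 (SE 0.10, adjusted p = 0.151, edgeR). It passed with DESeq2 (adjusted p = 0.00326), without the filter on low counts (0.025), without replicate 2 (0.0343) and without replicate 3 (0.00837). ITGAV went from 168, 195 and 214 to 166, 148 and 187 CPM, with overlap (-0.21, SE 0.09, adjusted p = 0.451, edgeR). The median over the 27 members was -0.07 against -0.00 over all genes. Lower in all 3 pairs were 5 members (18.5%, against 17.4% of all genes) and higher 3 (11.1%, against 19%). ITGA4, ITGA9, ITGA10 and ITGA11 were too low to test.

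**Figure D4:**
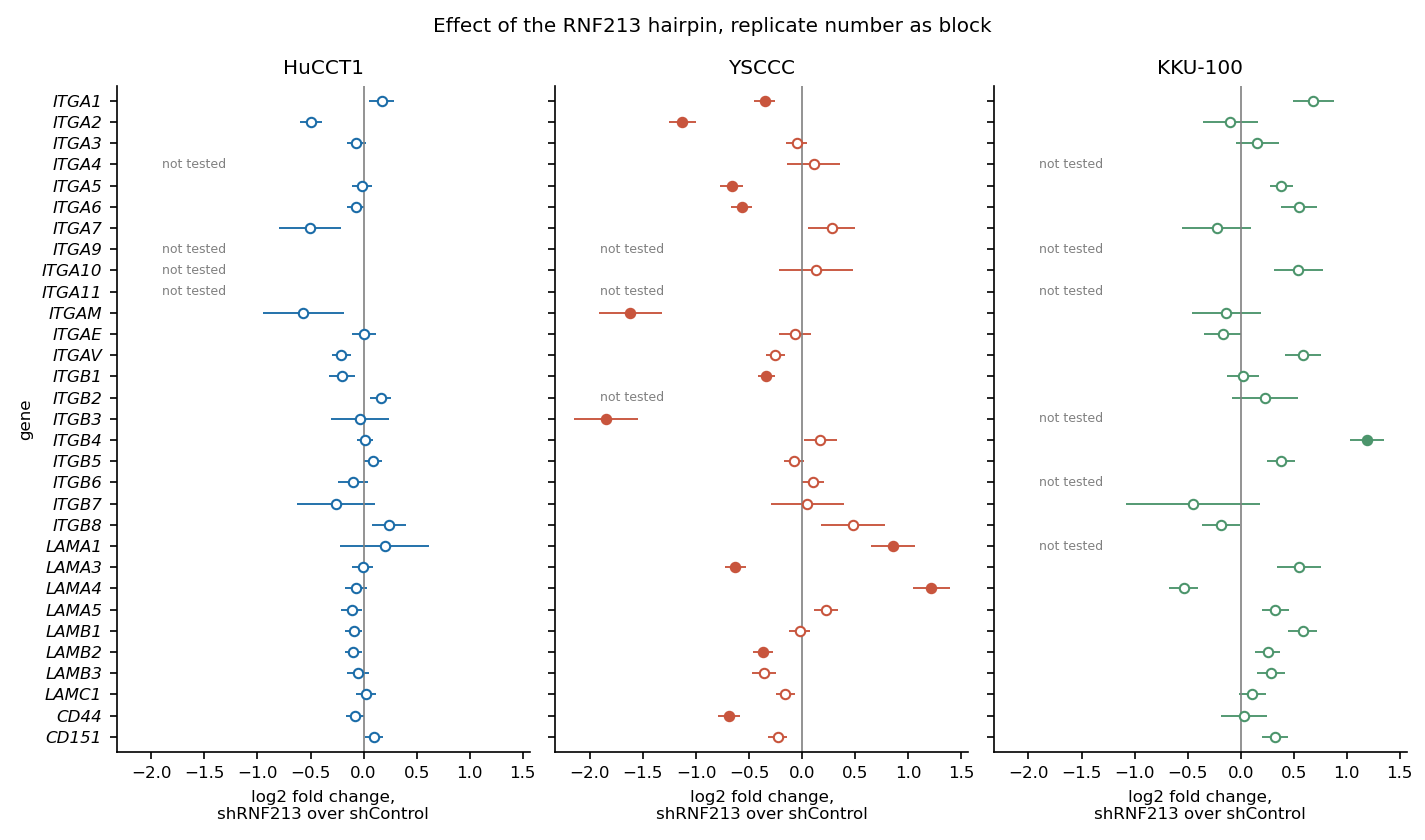
Log2 fold change of shRNF213 against shControl for each member in each line, with bars of 1 SE. Filled points have an adjusted p under 0.05 in the edgeR test with the replicate as a block, and members too low to test are marked as such. Filled points number 0 in HuCCT1, 12 in YSCCC and 1 in KKU-100.

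The mean effect over the 3 lines and the differences between lines were tested in 1 model of all 18 libraries, the same libraries as above. For the mean effect 2 of 30 members passed (2.9% of all genes did): ITGA2 at -0.57 (SE 0.13, adjusted p = 0.0281) and ITGB4 at 0.46 (SE 0.10, adjusted p = 0.0216, both edgeR). In KKU-100 alone ITGA2 held 329.6, 581 and 725 CPM against 491, 634 and 372, so replicate 3 went down and the other pairs up (-0.10, SE 0.26, adjusted p = 0.886, edgeR). Over the alternatives the adjusted p of the mean effect ran from 0.000129 to 0.442 for ITGA2 and from 0.0002 to 0.956 for ITGB4. Both were lost without replicate 1 (0.0528 to 0.0726) and without replicate 2 (0.0532 to 0.106), where ITGAM passed instead, and ITGB4 without replicate 3 (0.166), where ITGB8 passed.

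The knockdown effect differed between YSCCC and KKU-100 for 8 of 30 members (26.7%, against 2.63% of all genes), 7 of them lower in YSCCC relative to KKU-100 (23.3%, against 1.64% of all genes) and 1 higher (3.33%, against 0.993%). The median difference over the 30 was -0.55 on the log2 scale, against -0.01 over all genes. The 7 were 4 integrin alpha subunits, ITGB4 and 2 laminin chains. Differences of effect (YSCCC minus KKU-100, log2) were -1.17 for LAMA3 (SE 0.20, adjusted p = 0.0105), -1.12 for ITGA6 (SE 0.20, 0.0119), -1.05 for ITGA5 (SE 0.15, 0.005), -1.04 for ITGA1 (SE 0.23, 0.0303), -1.02 for ITGB4 (SE 0.24, 0.0393), -0.84 for ITGAV (SE 0.19, 0.033) and -0.62 for LAMB2 (SE 0.12, 0.019). The 1 in the other direction was LAMA4, at 1.75 (SE 0.21, adjusted p = 0.00203).

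The library values show both sides of these differences. ITGA6 in KKU-100 held 93.4, 145 and 90.3 CPM in shControl and 203, 159 and 123 in shRNF213, higher in all pairs, where all YSCCC pairs were lower. ITGA5 there held 70.7, 56.0 and 65.0 against 102, 67.3 and 85.9 CPM, and ITGA1 144, 85.0 and 255 against 296, 167 and 271 CPM. LAMA3 held 14.8, 7.99 and 14.6 against 20.9, 16.7 and 16.2 CPM, and LAMB2 421, 368 and 409.5 against 499.8, 464 and 480.1 CPM. All 5 of these genes were thus higher in each KKU-100 pair and lower in each YSCCC pair. None of the 5 passed within KKU-100 (adjusted p = 0.168 to 0.334, edgeR). ITGAV was also lower in every YSCCC pair (157 to 127, 165 to 139 and 139 to 121 CPM) without passing there.

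Between YSCCC and KKU-100, LAMA4 passed in every alternative but the one without the block (adjusted p from 4.25e-11 to 0.0902). Leaving out replicate 1 lost the other 7 (adjusted p = 0.104 to 0.359), replicate 2 left ITGA5 and ITGA6 beside LAMA4, and replicate 3 left ITGA1, ITGA5, ITGAV and LAMA3 beside it. LAMA4 was also the 1 member whose effect differed between YSCCC and HuCCT1 (1.29, SE 0.21, adjusted p = 0.0453, edgeR), where 0.047% of all genes did. Its HuCCT1 libraries held 49.8, 78.0 and 74.3 CPM in shControl and 56.5, 61.0 and 72.8 in shRNF213. This call was lost without replicate 1, 2 or 3 (adjusted p = 0.288, 0.224 and 0.0901), and over its alternatives the adjusted p ran from 3.82e-05 to 1. Between KKU-100 and HuCCT1 no member's effect differed by edgeR (0.235% of all genes did), with 11 members at an unadjusted p under 0.05 (12.5% of all genes) and 3 called by DESeq2 (ITGAV, ITGB4 and LAMB1; 2.29% of all genes).

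**Figure D5:**
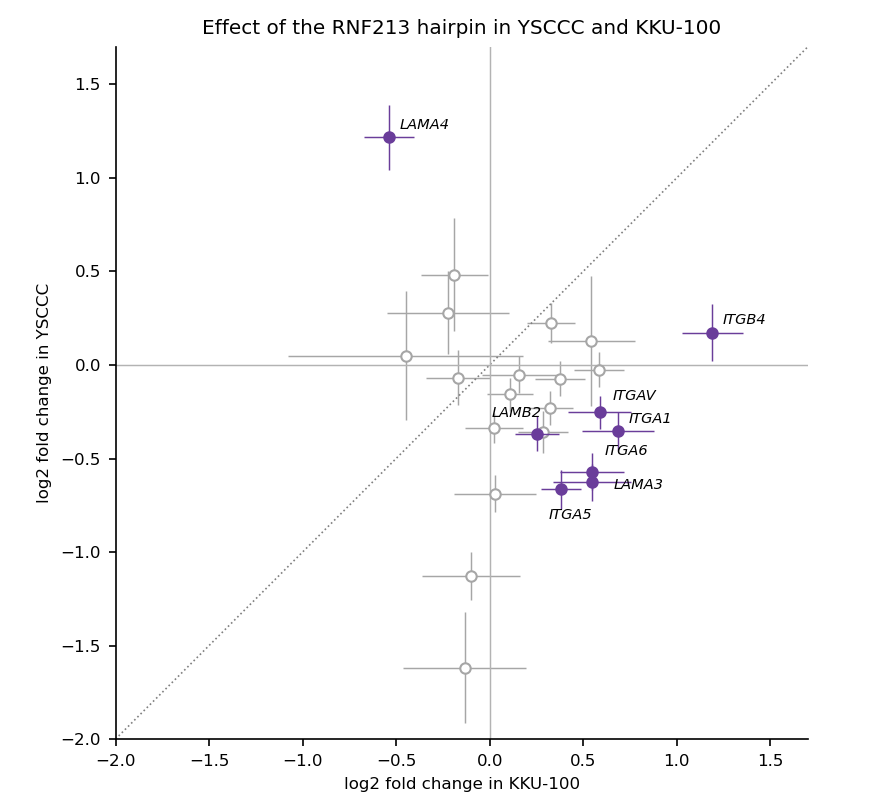
Log2 fold change of shRNF213 against shControl in KKU-100 (horizontal) and YSCCC (vertical) for each member tested in both, with bars of 1 SE. The dotted diagonal marks equal effects, and purple points are the 8 members whose difference passed in the edgeR test. Of these, 7 lie below the diagonal, and LAMA4 lies above it, high in YSCCC and low in KKU-100.

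The genes around these receptors were counted on 7 lists of adaptors, hemidesmosome and tetraspanin partners, other subunits, other receptors, matrix ligands and integrin traffic. In YSCCC 8 of 86 tested rose and 13 fell, beside 3.69% and 4.56% of all genes. In HuCCT1 0 of 78 passed and in KKU-100 1 of 82, beside 0.14% and 0.443% of all genes. Of 20 matrix ligands tested in YSCCC, 4 rose and 7 fell. FN1, fibronectin, the ligand of ITGA5 with ITGB1, fell there from 494 ± 80.2 to 205 ± 46.4 CPM (-1.29, adjusted p = 2.64e-05, edgeR). FBN1, a microfibril protein bound by ITGAV pairs, stood at -1.03, MFGE8, a ligand of ITGAV pairs, at -0.93, and SPP1, osteopontin, another such ligand, at 0.95 (adjusted p = 0.011, 0.000641 and 0.0108, edgeR). The call in KKU-100 was TNC, tenascin-C, which rose from 22.9 ± 12.1 to 57.5 ± 17.2 CPM (1.38, adjusted p = 0.0462, edgeR).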

How the data were processed

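Libraries of mRNA from 18 samples were analysed from 1 deposited table per sample. Per the submitters' processing notes, the build was GRCh38 and the tools included HTSeq 0.6.1p1, STAR 2.5.1b, DESeq2 1.34.0, StringTie 2.1.6, FastQC 0.11.9 and Picard 1.139, with no settings and no strand option named. Columns named in the headers hold the authors' raw counts, TPM and FPKM for each gene, and 2 signal columns that entered no result: mean coverage and DESeq2-scaled counts, as deposited. Tests used the raw counts, and levels between genes the TPM; FPKM served as an alternative.

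edgeR 4.0.16 (R 4.3.3) quasi-likelihood tests were run with TMM factors after filterByExpr (minimum count 10, minimum total 15), on all genes, with Benjamini-Hochberg adjustment and a threshold of 0.05. Knockdown was tested in the 6 libraries of each line with the replicate number as a block, the mean effect and its differences in all 18 libraries with 9 line-by-replicate blocks, and line levels in the 9 shControl libraries. CPM use TMM factors over all 18. In the fits with a block, p-values measure the spread of the differences between same-numbered libraries. In the fits of line levels, they measure the spread between the libraries of a line. The replicate numbers were taken as pairs within a line. Deviations from group means correlated for every same-numbered pair, against a minimum of 0.1. The correlations were 0.706 to 0.787 in HuCCT1, 0.723 to 0.902 in YSCCC and 0.406 to 0.730 in KKU-100. Different numbers also passed the minimum, at 0.516 and 0.657 between replicates 1 and 2 of YSCCC and at 0.122 in KKU-100. The minimum alone thus does not tell how replicates 1 and 2 of YSCCC pair. The scripts were tested on simulated data.

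Alternatives were DESeq2 1.42.0, RLE factors, no filter, no block (or a block for levels), each replicate left out, and pair limits of 0.5 and 5 TPM or 1 FPKM. Library values are given for members called in a knockdown fit, the mean or a difference, and for members with at least 10-fold between line means; partner genes are counted by list, and up to 4 called genes per list and line may be named. One partner gene is not reported here. Members and lists were chosen with earlier results of these data known. Promoters come from RefSeq (GRCh38.p14) and were searched for 3 motifs. Python 3.11.15, pandas 2.3.3 and matplotlib 3.10.9 made summaries and figures.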

Additional observations from a re-analysis of the deposited data

Results flagged for a closer look

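For 8 members the effect of the RNF213 hairpin differed between YSCCC and KKU-100 by the edgeR test of the difference itself (YSCCC minus KKU-100, log2, Benjamini-Hochberg adjusted over all genes). The values were -1.17 for LAMA3, -1.12 for ITGA6, -1.05 for ITGA5, -1.04 for ITGA1, -1.02 for ITGB4, -0.84 for ITGAV and -0.62 for LAMB2, all 7 lower in YSCCC relative to KKU-100. LAMA4 went the other way at 1.75. LAMA4 also differed between YSCCC and HuCCT1, by 1.29: it rose in YSCCC, and its estimate in HuCCT1 was -0.07.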

How the results depend on the processing

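No called difference changed direction in the alternatives run. Estimates near 0 that did not pass could change sign without the block, as CD44 in KKU-100 did (0.03 with it, -0.07 without). Without the replicate block, the pairing of same-numbered libraries, no knockdown call was left: 0 members in YSCCC (12 with it), 0 in KKU-100 (1), 0 for the mean effect (2), 0 for YSCCC minus HuCCT1 (1) and 0 for YSCCC minus KKU-100 (8). DESeq2 called 1 member in HuCCT1 (0 in edgeR), 5 in KKU-100, 2 for YSCCC minus HuCCT1 and 3 for KKU-100 minus HuCCT1 (0 in edgeR). No filter on low counts gave 1 in HuCCT1, 3 for KKU-100 minus HuCCT1 and 14 for YSCCC minus KKU-100. Leaving out 1 replicate gave 0 to 1 calls in HuCCT1, 5 to 12 in YSCCC, 0 to 4 in KKU-100, 0 to 2 for the mean effect, 0 to 0 for YSCCC minus HuCCT1 and 1 to 6 for YSCCC minus KKU-100. The cause was not tested, except that leaving out a replicate also leaves fewer libraries. DESeq2 gave no adjusted p for ITGAM in YSCCC. Counts of level differences between lines and of integrin pairs stayed within 1.5 times their values in every alternative run, with a replicate block in the level fits included. Members under 1 CPM, such as ITGAM and ITGB3 under the RNF213 hairpin in YSCCC, rest on few counts.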

Other observations

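Among the other genes around the YSCCC members, COL17A1, a hemidesmosome collagen, fell by 1.04 on the log2 scale (adjusted p = 0.0232), CD82, a tetraspanin, by 0.61 (0.00842) and DAG1, the laminin receptor dystroglycan, by 0.37 (0.0145), all by edgeR with the replicate block. HMMR, a hyaluronan-binding protein of dividing cells, rose by 0.62 (adjusted p = 0.00634). CDH1, E-cadherin, the ligand of ITGAE with ITGB7, was singled out after its values were seen and fell by 0.57 (adjusted p = 0.0075, edgeR). Of the adaptors that link integrins to actin, 3 rose and 2 fell of 33 tested, where 8.25% of all genes passed. The 4 largest changes were TLN2 (0.64), TNS4 (-0.54), PTK2B (0.41) and LIMS1 (0.38). None of 11 traffic and inhibitor genes passed in YSCCC by edgeR.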
